A study of Mus musculus with 6 samples.

Results

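Basophils and mast cells are rare granulocyte relatives that carry the high-affinity IgE receptor, and 8 genes that mark them were followed in whole bone marrow of nuclear myosin 1 knockout and wild-type mice. The genes were Mcpt8, Prss34, Cpa3, Fcer1a, Ms4a2, Cd200r3, Hdc and Gata2. They were taken by name from the 46603 genes of each count file, and the eosinophil genes were kept apart. All 8 were found, and all 8 were among the 15069 genes that passed the filter on low counts. The NM1 KO group held 3 C57/Bl6 mice lacking nuclear myosin 1, a nuclear isoform encoded by the class I myosin gene Myo1c, and the NM1 WT group held 3 wild-type C57/Bl6 mice. All mice were 8 months old, and each library came from the femurs and tibiae of a single mouse. The marrow was spun out without any sorting of cells, and the labels name no tissue-specific driver for the knockout. The comparison asks what differs in marrow RNA when nuclear myosin 1 is missing.

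A mast cell or a basophil binds IgE through a receptor made of an alpha chain that holds the antibody, a beta chain and a shared gamma chain. When antigen joins the bound IgE molecules, the cell releases granules with histamine and proteases and secretes cytokines such as interleukin 4. Basophils finish their development in the marrow under interleukin 3 and circulate in blood, whereas mast cells leave the marrow as progenitors and mature in tissues under stem cell factor.

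Library totals ranged from 21101616 to 22618802 counts in NM1 KO and from 15145052 to 17580660 counts in NM1 WT. Levels are given as CPM, counts scaled to library size with TMM factors that correct for differences in library composition, and 1 CPM stood for 14.7 to 23.0 counts. The 12 neutrophil markers summed to 38491 to 49576 CPM in NM1 KO mice and 49782 to 67584 CPM in NM1 WT mice, and none of them was at 0, so the libraries carried the myeloid RNA of marrow. Libraries NM1 KO 1, NM1 KO 2 and NM1 WT 2 held transcripts of Y-linked genes, at a mean of 38.7 to 50.5 CPM before TMM scaling. The other 3 libraries had 0 CPM of them and 272 to 302 CPM of Xist, and the sex of the mice is not given in the sources used here. Myo1c itself had 73.8, 59.1 and 59.7 CPM in NM1 KO mice and 89.8, 115 and 102 CPM in NM1 WT mice. Its log2 fold change was -0.67 with an SE of 0.14 and an adjusted p of 0.0516, just short of the threshold. It passed under 5 of the 16 alternatives, among them DESeq2 (0.00169), and its adjusted p was highest without NM1 KO 2 (0.238). A count per gene sums every isoform and so says nothing of the nuclear one alone.

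All 8 genes had a negative log2 fold change, NM1 KO over NM1 WT, beside 49.8% of all tested genes, but only Prss34 passed. Passing means a Benjamini-Hochberg adjusted p below 0.05 by the quasi-likelihood test of edgeR. That is 1 of 8 genes lower in NM1 KO, beside 0.186% of all tested genes. In either direction 0.776% of tested genes passed. At an unadjusted p under 0.05, 5 of the 8 were lower in NM1 KO, beside 8.32% of tested genes. For 4 of the 8, Mcpt8, Prss34, Fcer1a and Ms4a2, every NM1 KO library lay below every NM1 WT library, beside 9.75% of all tested genes. The median log2 fold change was -0.74 over the 8 genes and 0.002 over all tested genes. A log2 fold change of -0.5 or lower was found for 6 of the 8 genes, beside 12.4% of tested genes, and Hdc and Gata2 were the 2 others. In bulk marrow, fewer cells of a type and less RNA per cell cannot be told apart.

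**Figure D1:**
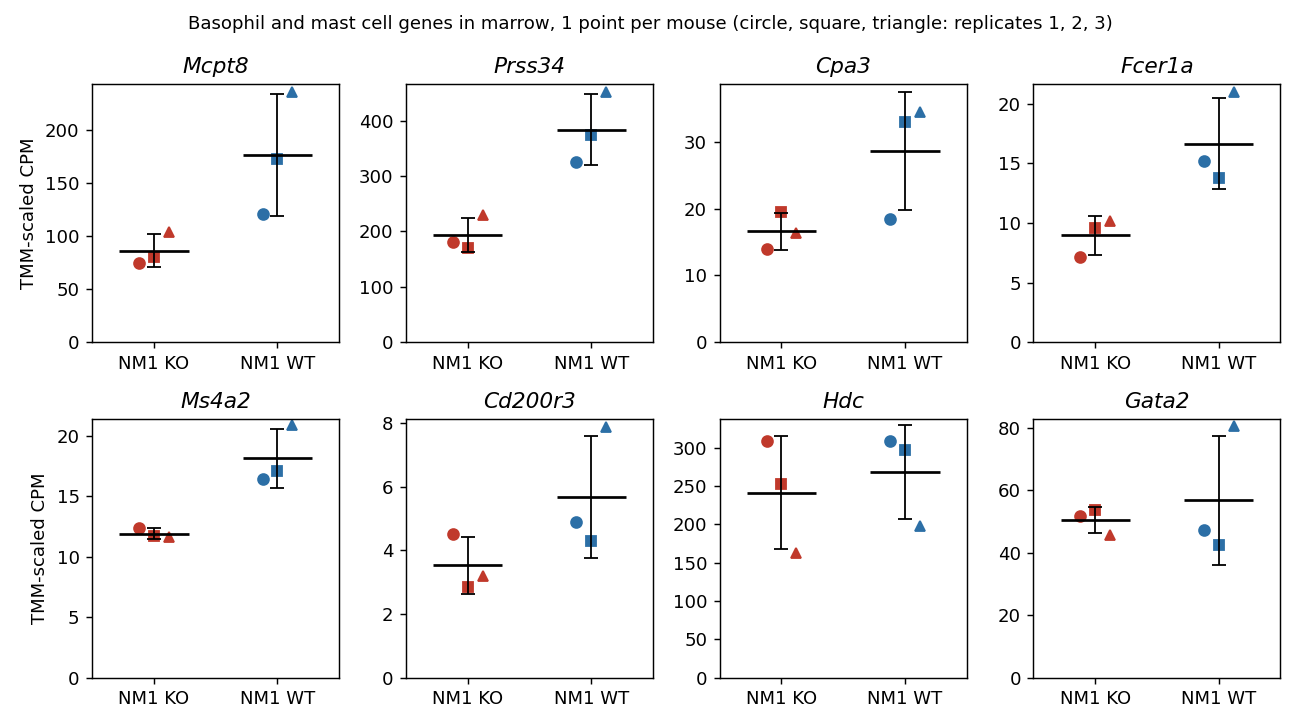
TMM-scaled CPM (vertical axes, each from 0) of the 8 basophil and mast cell genes in 3 NM1 KO and 3 NM1 WT mice, with 1 point per mouse and a bar and whiskers for mean ± SD. Mcpt8, Prss34, Fcer1a and Ms4a2 show no overlap between genotypes, while the points of Hdc and Gata2 overlap, with NM1 WT 3 above all others for Gata2.

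The granule proteases Mcpt8 and Prss34 had the 2 lowest log2 fold changes of the 8 genes. Prss34, a basophil serine protease of the tryptase cluster (ENSMUSG00000056399, chromosome 17, 25298394 to 25300165 on GRCm38), had 181, 170 and 229 CPM in NM1 KO mice and 325, 374 and 452 CPM in NM1 WT mice. The highest NM1 KO library stayed below the lowest NM1 WT library. Prss34 fell by 0.99 on the log2 scale (adjusted p = 0.023, SE 0.16), to 193 ± 31.4 CPM in NM1 KO mice against 384 ± 64.0 CPM in NM1 WT mice (SD of 3 mice in each group). It ranked 32 of 15069 by p. The call was lost without NM1 KO 2 (log2 fold change -0.90, adjusted p = 0.0818) and without NM1 WT 3 (-0.86, adjusted p = 0.0616). Its adjusted p lay between 4.9e-09 and 0.0818 under the 16 alternatives, and 14 of them kept the call.

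Mcpt8, mast cell protease 8, which in the mouse marks basophils despite its name (ENSMUSG00000022157, chromosome 14, 56082166 to 56085273), had 74.2, 80.2 and 104 CPM in NM1 KO mice and 121, 172 and 235 CPM in NM1 WT mice. The genotypes did not overlap, although NM1 KO 3 and NM1 WT 1 lay close together. The means were 86.0 ± 15.5 CPM in NM1 KO mice and 176 ± 57.6 CPM in NM1 WT mice (SD of 3 mice in each group). Its log2 fold change was -1.03 (SE 0.22), the lowest of the 8, and its adjusted p of 0.0513 in edgeR's quasi-likelihood test missed the threshold. It passed without NM1 KO 3 (-1.19, adjusted p = 0.0424) and without NM1 WT 1 (-1.24, adjusted p = 0.0348). It also passed with DESeq2 (0.000112), with no low-count filter (1.75e-09) and with halved counts (0.0472), and under 6 of the 16 alternatives in all. The highest adjusted p was 0.221, without NM1 KO 2.

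Cpa3, carboxypeptidase A3, a granule enzyme stored by mast cells, basophils and their progenitors (ENSMUSG00000001865, chromosome 3, 20215620 to 20242181), had 14.0, 19.5 and 16.3 CPM in NM1 KO mice and 18.5, 33.0 and 34.5 CPM in NM1 WT mice. The genotypes overlapped, since NM1 WT 1 was below NM1 KO 2. The log2 fold change was -0.79 (SE 0.24) and did not pass (adjusted p = 0.136 in edgeR's test). DESeq2 gave it an adjusted p of 0.0353, and the fit with no low-count filter gave 0.00515, the lowest of its alternatives.

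Neither of the IgE receptor chains among the 8 genes passed, although both had every NM1 KO library below every NM1 WT library. Fcer1a, the alpha chain that binds IgE (ENSMUSG00000005339, chromosome 1, 173221284 to 173227214), had 7.14, 9.58 and 10.2 CPM in NM1 KO mice and 15.2, 13.8 and 21.0 CPM in NM1 WT mice. Its genotypes did not overlap, and its log2 fold change was -0.89 (SE 0.24), with an adjusted p of 0.107 by edgeR and 0.0184 by DESeq2. Ms4a2, the signal-amplifying beta chain (ENSMUSG00000024680, chromosome 19, 11615523 to 11623719), had 12.4, 11.7 and 11.6 CPM in NM1 KO mice and 16.4, 17.1 and 20.9 CPM in NM1 WT mice. The NM1 KO libraries of Ms4a2 lay within 1 CPM of each other and below all NM1 WT libraries. Its log2 fold change was -0.61 (adjusted p = 0.146, SE 0.19).

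Fcer1g, the gamma chain that many myeloid cells share, had 352, 306 and 289 CPM in NM1 KO mice and 461, 389 and 387 CPM in NM1 WT mice. These values did not overlap either, but its adjusted p was 0.176 at a log2 fold change of -0.38 (SE 0.13). Of 18 tested genes of IgE receptor signalling, 0 passed in edgeR and 1 in DESeq2, beside 117 and 774 of all 15069 tested genes. The 18 genes included the gamma chain and the kinases and adaptors behind it. Their median log2 fold change was 0.06, with 7 negative and 11 positive. At an unadjusted p under 0.05, 6 of the 18 were reached, beside 16.8% of all tested genes. The gene of smallest p among the 18 was Orai1, the pore of the store-operated calcium channel, with 56.9 ± 5.66 CPM in NM1 KO mice and 88.7 ± 13.4 CPM in NM1 WT mice (adjusted p = 0.0653).

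Cd200r3, an activating receptor of basophils and mast cells that signals through the adaptor DAP12 (ENSMUSG00000036172, chromosome 16, 44943678 to 44981380), was the lowest of the 8, with 4.53, 2.86 and 3.19 CPM in NM1 KO mice and 4.89, 4.29 and 7.87 CPM in NM1 WT mice. NM1 KO 1 lay above NM1 WT 2. These levels rest on 62 to 104 counts in NM1 KO and 72 to 120 counts in NM1 WT. The log2 fold change was -0.69 (adjusted p = 0.369, SE 0.37). Tyrobp, which encodes DAP12 and is expressed across myeloid cells, had 331 ± 37.4 CPM in NM1 KO mice and 476 ± 56.1 CPM in NM1 WT mice without overlap (log2 fold change -0.53, adjusted p = 0.103).

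The log2 fold changes of Hdc and Gata2 were the nearest to 0 of the 8. Hdc, histidine decarboxylase, the enzyme that makes histamine and that immature myeloid cells of mouse marrow also express (ENSMUSG00000027360, chromosome 2, 126593667 to 126619299), had 309, 252 and 163 CPM in NM1 KO mice and 309, 297 and 198 CPM in NM1 WT mice. The genotypes overlapped nearly throughout, and the log2 fold change was -0.15 (adjusted p = 0.79, SE 0.22). Gata2, a transcription factor of stem and progenitor cells, megakaryocytes, basophils and mast cells (ENSMUSG00000015053, chromosome 6, 88193891 to 88207032), had 51.7, 53.8 and 45.8 CPM in NM1 KO mice and 47.3, 42.6 and 80.6 CPM in NM1 WT mice. NM1 WT 3 was high and the other 5 libraries lay together, and the log2 fold change was -0.17 (adjusted p = 0.736, SE 0.21). The sign turned to 0.07 for Hdc without NM1 KO 3 and to 0.16 for Gata2 without NM1 WT 3.

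**Figure D2:**
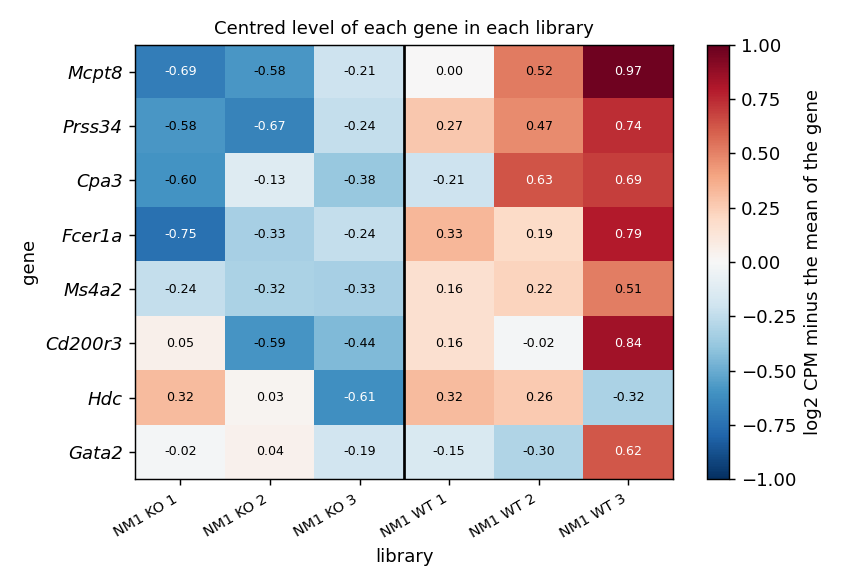
Centred level of each gene (rows) in each library (columns), as log2 CPM minus the mean of that gene over the 6 libraries. NM1 WT 3 is the highest library for 7 of the 8 genes, and Hdc, at -0.32 there, is the exception.

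The libraries were not ordered alike within a genotype. NM1 WT 3 was highest for 7 of the 8 genes, while the lowest library was NM1 KO 1 for 3 genes, NM1 KO 2 for 2, NM1 KO 3 for 2 and NM1 WT 2 for Gata2. The mean centred log2 CPM of the 8 genes was -0.31, -0.32 and -0.33 in the NM1 KO libraries and 0.11, 0.25 and 0.61 in the NM1 WT libraries. The NM1 KO libraries were thus nearly equal on this mean and the NM1 WT libraries were spread. Ms4a2 followed the mean of the other 7 genes most closely, with a root mean square difference of 0.061 log2 units over the 6 libraries, and Hdc least closely, at 0.571.

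Differences between the genes were tested on the log2 ratio of each pair in each library, 28 pairs in all. With 3 mice against 3 the smallest two-sided exact permutation p is 0.1, and the smallest Benjamini-Hochberg value over the pairs was 0.4, so no pair could pass. In 7 pairs the ratios did not overlap between genotypes, and 6 of these were ratios to Gata2. A pair without any difference fails to overlap with a probability of 0.1, and the 6 share Gata2 and the same mice, so they are not independent. The log2 ratio of Prss34 to Gata2 averaged 1.93 ± 0.35 over the NM1 KO mice and 2.80 ± 0.32 over the NM1 WT mice (SD of 3 mice in each group, exact p = 0.1), and that of Mcpt8 to Gata2 averaged 0.76 ± 0.36 in NM1 KO mice and 1.64 ± 0.34 in NM1 WT mice. The seventh pair was Prss34 to Ms4a2, at 4.01 ± 0.25 in NM1 KO and 4.40 ± 0.08 in NM1 WT.

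Compared per length, as CPM per kb of annotated exon, the 8 genes spanned a wide range of levels. Prss34 was highest, at 158 ± 25.7 in NM1 KO and 315 ± 52.5 CPM per kb in NM1 WT. Mcpt8 followed at 86.2 ± 15.5 in NM1 KO and 176 ± 57.7 CPM per kb in NM1 WT, and Hdc at 37.8 ± 11.6 in NM1 KO and 41.9 ± 9.49 in NM1 WT. Cpa3 had 11.0 ± 1.83 CPM per kb in NM1 KO mice and 18.9 ± 5.83 in NM1 WT mice, and the ranges of Fcer1a and of Gata2 after it overlapped with the gene before in both genotypes. Ms4a2 had 4.23 ± 0.143 CPM per kb in NM1 KO and 6.45 ± 0.862 in NM1 WT, and Cd200r3 had 0.589 ± 0.148 in NM1 KO and 0.949 ± 0.321 in NM1 WT. Neighbours in this order other than Cpa3, Fcer1a and Gata2 did not overlap within either genotype.

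Mature mast cell genes were nearly absent. Of 12 further mast cell genes, 7 had 0 counts in all libraries, namely the proteases Mcpt4, Tpsab1, Tpsg1, Mcpt9 and Cma2 and the receptors Mrgprb1 and Mrgprb2. Without Kit, the list held 36 counts in all over the NM1 KO libraries and 28 over the NM1 WT libraries, a summed level of 0.261 to 1.01 CPM in NM1 KO mice and 0.464 to 0.814 CPM in NM1 WT mice. Kit, the stem cell factor receptor, which progenitors also carry, was the only member tested, with 46.8 ± 4.65 CPM in NM1 KO mice and 38.4 ± 2.51 CPM in NM1 WT mice (adjusted p = 0.334). The protease genes of connective tissue and mucosal mast cells gave at most 10 counts in any library, for Cma1 in NM1 WT 1.

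Among 14 receptors and transcription factors of the lineage, 1 passed, beside 0.776% of all tested genes, and the median log2 fold change was -0.06. In this list 3 genes passed in DESeq2, 4 with no low-count filter and 7 at an unadjusted p under 0.05, beside 16.8% of all tested genes. Over all genes, 774 passed in DESeq2 and 1138 with no low-count filter. The gene that passed was Il3ra, the alpha chain of the interleukin 3 receptor, with 25.7, 23.4 and 28.7 CPM in NM1 KO mice and 63.3, 53.0 and 75.6 CPM in NM1 WT mice. The genotypes lay far apart, and Il3ra fell by 1.30 on the log2 scale (adjusted p = 0.00743, SE 0.16). It passed under all 16 alternatives, at an adjusted p of at most 0.034. Csf2rb, the beta chain that interleukin 3, interleukin 5 and GM-CSF receptors share, had 88.0 ± 13.9 CPM in NM1 KO mice and 134 ± 23.6 CPM in NM1 WT mice (adjusted p = 0.106).

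Of 5 ligands that act on these cells, 3 were tested and 1 passed, higher in NM1 KO, beside 0.591% of all tested genes. This was Kitl, stem cell factor, which rose by 1.45 on the log2 scale (adjusted p = 0.026, SE 0.24). It had 28.7, 50.2 and 33.7 CPM in NM1 KO mice and 11.7, 11.8 and 17.8 CPM in NM1 WT mice. The genotypes did not overlap, and the call was lost without NM1 KO 2 (adjusted p = 0.0701), without NM1 WT 1 (0.127) and with limma-voom (0.0571). All 11 stroma and muscle markers described below also had positive log2 fold changes, at a median of 1.54, and a link to Kitl was not tested. Il3 had 0 counts in every library. Tslp, an epithelial and stromal cytokine, had 2 to 6 counts in NM1 KO and 8 to 24 counts in NM1 WT. Its log2 fold change was -2.33 (SE 0.81) and did not pass (adjusted p = 0.183).

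Of 15 tested genes of granule storage, exocytosis and lipid mediators, 1 passed, beside 0.776% of all tested genes, with a list median of -0.09. DESeq2 called 2 of the 15, the fit with no low-count filter called 4, and 5 had an unadjusted p under 0.05, beside 16.8% of all tested genes. Stx3, a syntaxin of granule exocytosis, fell by 1.06 on the log2 scale (adjusted p = 0.0343, SE 0.19), to 23.5 ± 6.01 CPM in NM1 KO mice against 48.9 ± 5.96 CPM in NM1 WT mice (SD of 3 mice in each group). Its call was lost in 4 of the 6 fits that left a library out, those without NM1 KO 2, NM1 KO 3, NM1 WT 1 or NM1 WT 3 (adjusted p = 0.0564 to 0.129), and with a covariate for Y-linked transcripts (0.0518). Hpgds, prostaglandin D synthase of mast cells and other haematopoietic cells, had 19.4 ± 3.93 CPM in NM1 KO mice and 11.7 ± 0.348 CPM in NM1 WT mice (adjusted p = 0.119), the opposite direction. Of 10 tested surface molecules and cytokines, 0 passed in edgeR and 2 in DESeq2, beside 117 and 774 of all 15069 tested genes. At an unadjusted p under 0.05, 4 of the 10 were reached, beside 16.8% of all tested genes, and the list median was 0.04. Itgb7, the integrin beta 7 chain, had 115 ± 20.7 CPM in NM1 KO mice and 176 ± 13.1 CPM in NM1 WT mice (adjusted p = 0.0848). Il4, the cytokine most tied to basophils, had 10, 18 and 12 counts in NM1 KO and 18, 24 and 38 counts in NM1 WT. Scaled for library size, these were 0.435, 0.829 and 0.563 CPM in NM1 KO mice and 1.22, 1.39 and 2.49 CPM in NM1 WT mice, without overlap. The log2 fold change of Il4 was -1.47 (SE 0.6) and did not pass (adjusted p = 0.248).

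**Figure D3:**
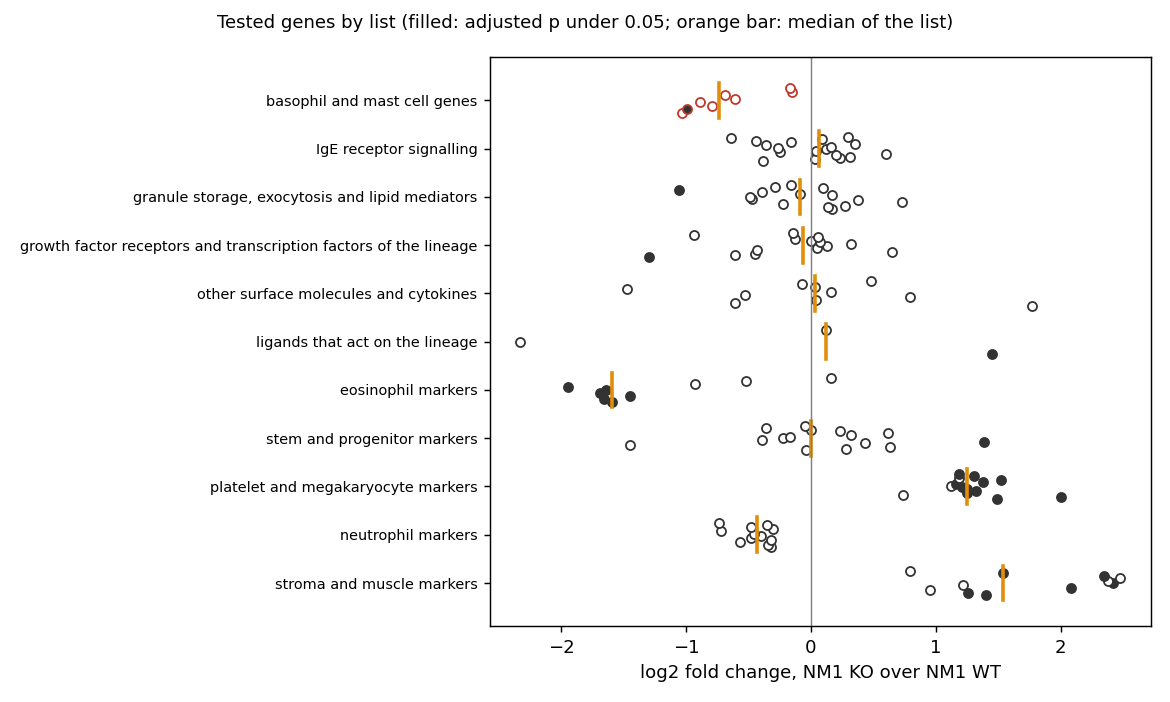
Log2 fold change, NM1 KO over NM1 WT (horizontal axis), of each tested gene in the 8 basophil and mast cell genes and in 10 other lists (rows), with filled points at an adjusted p under 0.05 and an orange bar at the median. The 8 genes lie left of 0 with a median of -0.74, and the related pathway lists centre near 0. The eosinophil markers have a lower median, -1.59, but 1 of the 9 lies right of 0.

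Markers of several other marrow cells also differed between the genotypes. Of 9 eosinophil markers, 6 fell, beside 0.186% of all tested genes. The median log2 fold change of the 9 was -1.59, and they summed to 703 to 1188 CPM in NM1 KO mice and 2027 to 3367 CPM in NM1 WT mice. Il5ra (log2 fold change -0.93, adjusted p = 0.345), Siglecf (-0.52, 0.475) and Ccr3 (0.16, 0.828) did not pass and overlapped between genotypes. Of 12 neutrophil markers, 0 passed in edgeR and 5 in DESeq2, beside 117 and 774 of all 15069 tested genes. At an unadjusted p under 0.05, 7 were lower in NM1 KO, beside 8.32% of all tested genes. The log2 fold change was below 0 for 12, beside 49.8% of all tested genes, at a median of -0.43. Of 14 platelet and megakaryocyte markers, 11 rose, beside 0.591% of all tested genes, and they summed to 2376 to 4974 CPM in NM1 KO mice and 1163 to 1517 CPM in NM1 WT mice. Fewer of them passed without NM1 KO 2 (7), NM1 WT 1 (2) or NM1 WT 3 (3). Of 11 stroma and muscle markers, 6 rose, again beside 0.591% of all tested genes, with summed levels of 1222 to 2012 CPM in NM1 KO mice and 542 to 653 CPM in NM1 WT mice, and 1 passed without NM1 WT 1. The 15 stem and progenitor markers had a median log2 fold change of 0.00, with summed levels of 914 to 1084 CPM in NM1 KO mice and 809 to 889 CPM in NM1 WT mice. Their log2 fold changes were positive for 8 and negative for 7. An unadjusted p under 0.05 was found for 5, beside 16.8% of all tested genes. None of these lists had a gene at 0 in all libraries, and their part in the values of the 8 genes was not tested.

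Prg2, the eosinophil major basic protein, which was chosen for this purpose after its values were seen, had 845, 501 and 694 CPM in NM1 KO mice and 2286, 1435 and 2408 CPM in NM1 WT mice. The log2 ratio of Mcpt8 to Prg2 averaged -2.97 ± 0.47 in NM1 KO mice and -3.55 ± 0.62 in NM1 WT mice, and that of Prss34 to Prg2 averaged -1.80 ± 0.37 in NM1 KO mice and -2.39 ± 0.44 in NM1 WT mice (SD of 3 mice in each group). Both ratios overlapped between genotypes (two-sided exact permutation p = 0.3 and 0.2, or 0.3 and 0.267 adjusted over 8 ratios). The ratios of Ms4a2, Cd200r3, Hdc and Gata2 to Prg2 did not overlap and were higher in NM1 KO, each at the smallest possible exact p of 0.1, or 0.2 adjusted. Prg2 had a lower log2 fold change (-1.59) than any of the 8 genes, so higher mean ratios in NM1 KO followed from its choice.

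Within the libraries that held Y-linked transcripts, 2 NM1 KO and 1 NM1 WT, the log2 ratio of the NM1 KO mean to the NM1 WT level was -1.09 for Prss34, -1.16 for Mcpt8, -0.98 for Cpa3, -0.72 for Fcer1a and -0.51 for Ms4a2. Within the other 3 libraries, 1 NM1 KO and 2 NM1 WT, it was -0.76, -0.78, -0.70, -0.82 and -0.68 for the same genes. NM1 KO lay below NM1 WT in both sets for these 5 genes. For all of them but Cpa3 this follows from the lack of overlap over the 6 libraries, so the split adds nothing there. Hdc had -0.08 and -0.64 and Gata2 had 0.31 and -0.48, so Gata2 differed in sign between the sets. For Cd200r3 the means were 3.69 CPM in NM1 KO mice and 4.29 CPM in NM1 WT mice in the first set, where the genotypes overlapped, while in the second NM1 KO had 3.19 CPM and NM1 WT 6.38 CPM. The sets were not tested singly. With a covariate for Y-linked transcripts in the fit of all 6 libraries, Prss34 was the 1 gene of the 8 that passed (log2 fold change -0.93, adjusted p = 0.0276), and Mcpt8 had -0.97 (adjusted p = 0.087).

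The promoters of the 8 genes were searched for the short words that GATA factors such as GATA2 recognise, with the fold changes already known. The words AGATAA and TGATAA, and each of them with G as the last letter, were searched on both strands in the 250 bases before the RefSeq start on GRCm38.p6. At least 1 was found for 6 of the 8 genes. Counted by window, 6 of their 9 windows held a word, beside 26.5% of all 32851 such windows. Within the last 50 bases before the start, a limit set after the matches were seen, 4 genes held a word, beside 4.83% of all windows. These 4, with Mcpt8 for contrast, are shown here 5′ to 3′ on the strand of the gene, with the words in capitals.
Mcpt8, chr14:56085198-56085447, minus strand: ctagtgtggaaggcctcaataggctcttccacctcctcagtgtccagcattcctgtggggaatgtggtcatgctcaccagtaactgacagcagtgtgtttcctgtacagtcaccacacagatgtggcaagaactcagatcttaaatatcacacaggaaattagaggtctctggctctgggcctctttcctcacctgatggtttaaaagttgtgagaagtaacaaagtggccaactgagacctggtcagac
Prss34, chr17:25298144-25298393, plus strand: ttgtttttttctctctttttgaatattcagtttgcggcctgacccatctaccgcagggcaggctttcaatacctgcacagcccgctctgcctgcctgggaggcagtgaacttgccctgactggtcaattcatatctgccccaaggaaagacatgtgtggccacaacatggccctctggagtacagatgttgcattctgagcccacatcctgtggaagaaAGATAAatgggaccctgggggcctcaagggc
Cpa3, chr3:20242182-20242431, minus strand: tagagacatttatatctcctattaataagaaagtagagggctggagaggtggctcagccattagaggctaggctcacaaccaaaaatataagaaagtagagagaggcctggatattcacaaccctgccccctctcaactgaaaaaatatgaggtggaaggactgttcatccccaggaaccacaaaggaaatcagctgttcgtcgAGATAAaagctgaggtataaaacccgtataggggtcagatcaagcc
Ms4a2, chr19:11623720-11623969, minus strand: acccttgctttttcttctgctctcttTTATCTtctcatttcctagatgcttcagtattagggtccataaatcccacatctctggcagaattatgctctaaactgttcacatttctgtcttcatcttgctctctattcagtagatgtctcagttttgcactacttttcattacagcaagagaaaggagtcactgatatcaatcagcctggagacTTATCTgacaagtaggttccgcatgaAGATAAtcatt
Cd200r3, chr16:44943428-44943677, plus strand: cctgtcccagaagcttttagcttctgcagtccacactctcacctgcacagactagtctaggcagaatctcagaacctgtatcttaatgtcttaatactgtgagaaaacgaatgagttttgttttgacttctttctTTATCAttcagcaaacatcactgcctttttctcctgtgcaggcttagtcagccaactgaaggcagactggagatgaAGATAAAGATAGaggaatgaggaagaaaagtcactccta

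Prss34 had AGATAA starting 31 bases before the start and Cpa3 had it 46 bases before. Ms4a2 had 3 words, at 224, 37 and 11 bases, and Cd200r3 had 3, at 115, 39 and 33 bases. Fcer1a and Hdc had 1 word each, further away at 92 and 221 bases. Neither Mcpt8 nor the 2 annotated starts of Gata2 had a match. A match is a description of these letters, and no binding was measured. The relation of the matches to the fold changes was not tested.

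Several of the 8 genes lie in gene clusters, and the genes around them were examined. Of 45 tested protein-coding genes within 200 kb of any of the 8, 1 passed, beside 0.776% of all tested genes. It was Stx3, 151399 bases from Ms4a2 and already counted in the list of granule storage and exocytosis. Ctsg, the neutrophil cathepsin G gene 14608 bases from Mcpt8 in the protease cluster, had a log2 fold change of -0.32 at an adjusted p of 0.48. Ms4a3, a gene of granulocyte precursors 5777 bases from Ms4a2, had -0.18 (adjusted p = 0.721). The tryptase genes Tpsab1 and Tpsb2 beside Prss34 had 0 and at most 4 counts in a library.

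The 10 protein-coding genes whose centred log2 CPM lay nearest to the mean of the 8 genes over the 6 libraries were Eml5, Bcl2l12, Asl, Zfp839, Tbc1d22b, Scaper, Tspan17, Cyb5d2, Tmsb10 and Cep131. Their root mean square differences from that mean were 0.117 to 0.140 log2 units, beside a median of 0.432 over 12248 genes. Apart from Ms4a2, the 8 genes themselves lay further from the mean of their fellows, at 0.249 (Fcer1a) to 0.571 (Hdc). All 10 had NM1 KO libraries below NM1 WT libraries, which follows from the choice, and none passed the threshold. Once the mean of each genotype was removed, only 1 of the 10 remained among the nearest 10.

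**Figure D4:**
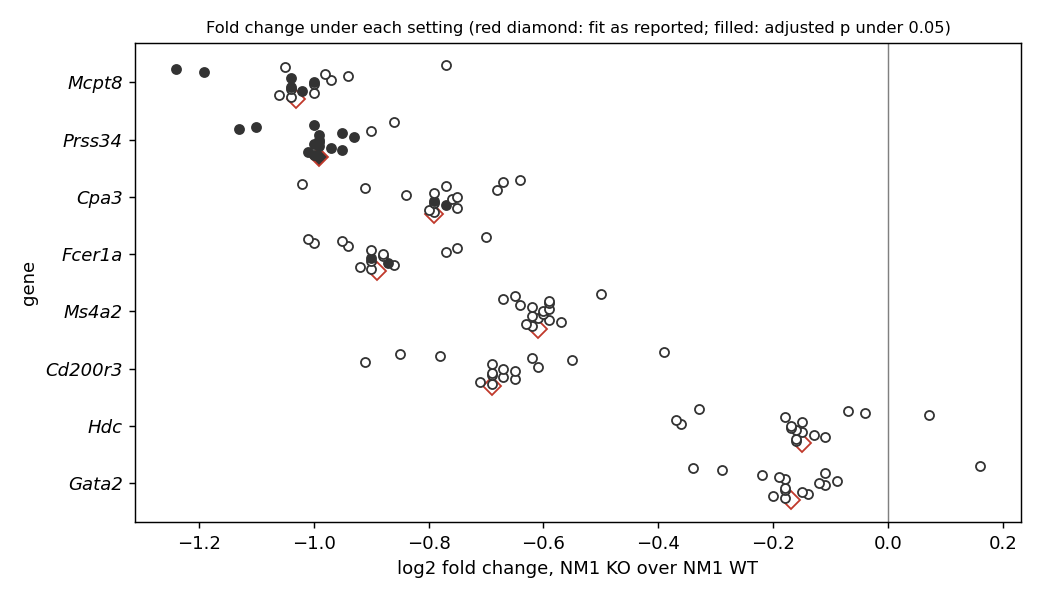
Log2 fold change, NM1 KO over NM1 WT (horizontal axis), of each gene (rows) in the fit as reported (red diamonds) and under 16 alternatives (circles), filled at an adjusted p under 0.05. Prss34 spans -1.13 to -0.86 and Mcpt8 -1.24 to -0.77, while Hdc and Gata2 reach 0.07 and 0.16.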

How the data were processed

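RNA was measured by sequencing in whole marrow of 6 mice, 3 NM1 KO and 3 NM1 WT, with p-values across separate mice. The deposited values are raw counts of reads per Ensembl gene, without normalisation. The submitters' processing notes name HISAT2 2.0.4 and HTSeq, after Trimmomatic 0.36, with builds GRCm38 and mm10. The strand setting and annotation release are not stated in them. Low counts were nearly all even (2417 genes at 2 and 6 at 1 in NM1 KO 1), so both mates of a pair appear to have been counted. All counts printed here are as deposited, so they appear to exceed the number of read pairs behind them. Of 46603 genes, 46005 matched GENCODE M21. Short genes Mir6949 and Mir7007 lie within Mcpt8 and Cpa3 and held at most 14 and 2 counts. At most 4.39% of the 50-base words of any of the 8 transcripts (Cd200r3) occur in other genes.

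Genes were filtered with filterByExpr, which left 15069 genes, scaled with TMM factors and tested by edgeR 4.0.16 in R 4.3.3 (quasi-likelihood, genotype as the only term), with Benjamini-Hochberg adjustment over all tested genes and a threshold of 0.05. The SE printed with a log2 fold change was derived from that test, as the absolute log2 fold change divided by the square root of the F statistic. Alternatives used other scalings, filters and models, limma-voom (limma 3.58.1), DESeq2 1.42.0, halved counts and each library left out. The fit was tested on simulated data, where it recovered 52% of 98 2-fold changes and 79% of 100 4-fold changes. Of its 145 calls there, 15 were false. The 8 genes, the lists and the tests were chosen with earlier results of these data known. Genes named are the 8, Myo1c, those of smallest p in each list of the lineage, the 10 nearest in pattern and called neighbours, while marker lists of other cells are given by counts. Prg2, Il5ra, Siglecf, Ccr3, Il4, Cma1, Ctsg, Ms4a3 and the tryptases were named after their values were seen. Counting limits cover counting error only. The call of 1 marker gene is not reported here.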

Additional observations from a re-analysis of the deposited data

How the results depend on the processing

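Of the 8 genes, 1 passed in the fit as reported. The number was 4 with no low-count filter and 4 with DESeq2 (Mcpt8, Prss34, Cpa3 and Fcer1a in each), 2 with halved counts, and 0 to 2 with a library left out, at 0 without NM1 KO 2 or NM1 WT 3. Over all genes 117 passed, against 1138 with no filter, 774 with DESeq2, 37 with limma-voom, 60 with a covariate for Y-linked transcripts, and 26 to 344 with a library left out (26 when NM1 WT 1 was left out, 30 for NM1 WT 3, 40 for NM1 KO 2, 177 for NM1 KO 3 and 344 for NM1 WT 2). Of the neighbours, 1 passed, against 3 with no filter, 3 with DESeq2, 0 with that covariate and 0 to 1 with a library left out. Why the counts moved was not tested. Of the fold changes of the 8 genes, Hdc turned to 0.07 without NM1 KO 3 (-0.37 to 0.07 over the libraries left out) and Gata2 to 0.16 without NM1 WT 3 (-0.34 to 0.16), and no other sign changed. Among the other genes named, Ms4a3 turned to 0.16 without NM1 WT 2 (-0.36 to 0.16).

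The titles number the mice alike in both genotypes. The deviations of same-numbered libraries correlated at 0.064, 0.115 and 0.061, so the numbers were not taken as pairs, although all 6 libraries correlated best with their own number. With a replicate block 2 of the 8 genes passed (Mcpt8, adjusted p = 0.00565, and Prss34, 0.00408) and 421 genes in all, and Myo1c passed too (0.0408).

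With the longest transcript as the length, levels per kb in NM1 KO and NM1 WT were 4.97 and 7.59 for Ms4a2, 0.909 and 1.47 for Cd200r3, 53.4 and 59.3 for Hdc, and 14.1 and 15.9 for Gata2. Of the 10 genes nearest in pattern, 1 was shared after removal of the genotype means. Cd200r3 rests on 62 to 120 counts a library, which limits its precision.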
